A study of Mus musculus with 6 samples.

Results

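Acetylcholine genes were read in bulk RNA of the nucleus accumbens, the ventral part of the striatum, from male C57BL6 mice aged 8 weeks. The set holds 10 genes, picked by symbol out of 54658 listed genes. They are Chat and Slc5a7 for synthesis, the 5 muscarinic receptor genes Chrm1 to Chrm5, and the nicotinic subunit genes Chrna4, Chrna7 and Chrnb2. In the Gas5 group, 3 libraries came from tissue injected with a herpes simplex virus vector (p1005+) carrying Gas5, a long noncoding RNA, with EGFP. In the GFP group, 3 libraries came from tissue given the same vector with EGFP alone, so both groups share the virus, the injection and EGFP. The labels do not state the promoter of the construct, the time after injection, any drug treatment, or whether a library is 1 mouse or a pool. P-values therefore measure the spread between these libraries, which are lettered A, B and C in each group.

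Acetylcholine in the striatum comes largely from sparse, tonically active cholinergic interneurons. These cells take up choline through the transporter encoded by Slc5a7 and acetylate it with choline acetyltransferase, the product of Chat. Muscarinic receptors are G protein-coupled. Those encoded by Chrm1, Chrm3 and Chrm5 act through Gq and phospholipase C, and those encoded by Chrm2 and Chrm4 act through Gi and Go. Nicotinic receptors are pentameric cation channels, and the subunits of Chrna4 and Chrnb2 assemble together while the subunit of Chrna7 forms a channel by itself.

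All 10 genes passed the expression filter. With the quasi-likelihood test of edgeR at an adjusted p under 0.05, 3 were lower in the Gas5 libraries: Chrm3, Chrm2 and Chrna4. Over all 17563 tested genes 5.44% were called in either direction, 3.96% lower and 1.48% higher. None of the 10 was called higher by edgeR, DESeq2 or limma-voom. At an unadjusted p under 0.05 stood 6 of the 10, against 21.4% of all tested genes. Of these, 2 were higher, Chat and Slc5a7, against 10.2% of all tested genes, and 4 were lower: Chrm3, Chrm2, Chrna4 and Chrna7. DESeq2 called 4 of the 10 lower, against 8.5% of all genes called in either direction, and limma-voom 3, against 5.02%. The Gas5 and GFP libraries did not overlap for 6 of the 10 genes, against 27.7% of all tested genes. The median log2 fold change of the 10 genes was -0.07, beside 0.02 over all tested genes. Adding the level of cortical neuron markers to the model left 0 of all 17563 genes called (0%), so the 0 of 10 there says nothing particular to these genes.

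Gas5 itself, the check on the labels, had 22.6, 23.3 and 23.6 CPM (counts scaled to library size by TMM) in Gas5 A, B and C, against 18.6, 16.5 and 18.3 CPM in GFP A, B and C. Its log2 fold change was 0.38 (SE 0.0633, edgeR adjusted p = 0.0163), and the call was lost without GFP B (adjusted p = 0.0727) or GFP C (adjusted p = 0.0677). Total counts ranged from 38605056 to 42524874 in the Gas5 libraries and from 32359052 to 56081575 in the GFP libraries.

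The 10 excitatory neuron markers of the cortex, which borders the accumbens, separated the groups. Of them 7 were lower by edgeR and limma-voom and 8 by DESeq2; 0 were higher by these tools or at an unadjusted p under 0.05, and none of the 10 was at 0 in all libraries. Their summed level was between 189 and 246 CPM in the Gas5 libraries and between 407 and 544 CPM in the GFP libraries. Their mean log2 CPM, called the cortical marker score here, stood at 2.19 (A), 2.87 (B) and 3.04 (C) in the Gas5 libraries, against 3.97 (A), 4.47 (B) and 4.49 (C) in the GFP libraries. Markers shared by medium spiny neurons, the principal cells of the accumbens, had a mean log2 CPM between 9.12 and 9.41 in the Gas5 libraries and between 9.27 and 9.45 in the GFP libraries, and 0 of 8 were called by edgeR, DESeq2 or limma-voom, with 1 at an unadjusted p under 0.05. Mean log2 CPM also lay apart for microglia markers (3.69 to 3.83 in Gas5, 3.46 to 3.59 in GFP), oligodendrocyte markers (6.69 to 6.99 in Gas5, 7.09 to 7.19 in GFP) and GABA interneuron markers (3.13 to 3.45 in Gas5, 3.64 to 3.73 in GFP). For astrocyte markers (4.23 to 4.51 in Gas5, 4.09 to 4.23 in GFP) Gas5 B and GFP A were level to 3 digits. The part of these cells in the receptor results was not tested. That of the score was not tested beyond the model that includes it. In bulk tissue, fewer cells of a type and less RNA per cell cannot be told apart.

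The upstream sequences of the 3 genes called lower and of the synthesis pair are shown so that they can be compared. RefSeq starts were matched for 9 of the 10 genes; the 250 bases before the start are given 5′ to 3′ from build GRCm38.p6, credited to RefSeq. Capitals mark matches on either strand to TATAAA (the TATA box), TGACGTCA (the cAMP response element), GGGCGG (the GC box), TTCAGCACC (part of the RE1 element bound by the neuronal gene repressor REST), TAATTA (a homeodomain core) or CAGATG (an E-box).
Chrm3 (chr13:10360804-10361053, minus strand): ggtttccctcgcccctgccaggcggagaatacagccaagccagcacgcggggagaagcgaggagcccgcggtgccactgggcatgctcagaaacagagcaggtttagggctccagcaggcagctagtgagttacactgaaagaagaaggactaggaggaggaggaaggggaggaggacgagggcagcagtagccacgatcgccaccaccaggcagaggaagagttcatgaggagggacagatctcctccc
Chrm2 (chr6:36387834-36388083, plus strand): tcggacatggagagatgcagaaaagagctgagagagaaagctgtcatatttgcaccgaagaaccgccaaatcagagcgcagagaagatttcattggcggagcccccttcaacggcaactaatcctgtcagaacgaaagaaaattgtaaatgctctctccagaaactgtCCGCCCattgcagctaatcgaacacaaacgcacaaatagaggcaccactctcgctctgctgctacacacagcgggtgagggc
Chrna4 (chr2:181039178-181039427, minus strand): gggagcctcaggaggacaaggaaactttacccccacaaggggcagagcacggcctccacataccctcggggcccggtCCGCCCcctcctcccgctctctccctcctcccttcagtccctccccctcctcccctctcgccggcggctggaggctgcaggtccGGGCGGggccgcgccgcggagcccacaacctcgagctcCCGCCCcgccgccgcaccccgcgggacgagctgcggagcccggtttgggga
Chat (chr14:32465910-32466159, minus strand): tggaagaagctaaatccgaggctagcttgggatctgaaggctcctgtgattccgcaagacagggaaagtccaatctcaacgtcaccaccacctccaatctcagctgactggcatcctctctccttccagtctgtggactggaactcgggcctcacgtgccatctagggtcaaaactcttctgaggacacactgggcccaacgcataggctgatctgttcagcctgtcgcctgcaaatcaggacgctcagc
Slc5a7 (chr17:54299035-54299284, minus strand): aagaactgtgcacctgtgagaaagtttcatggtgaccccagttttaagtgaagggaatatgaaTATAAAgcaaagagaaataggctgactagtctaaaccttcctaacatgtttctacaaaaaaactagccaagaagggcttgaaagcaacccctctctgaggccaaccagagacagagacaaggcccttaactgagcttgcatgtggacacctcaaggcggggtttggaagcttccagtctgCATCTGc

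The Chrna4 window lies inside the counted gene model, whose start is 4369 bases upstream of the RefSeq start. These windows differ in base composition. G and C made up 74.4% of the Chrna4 window, 61.2% of that of Chrm3, 54.8% of that of Chat, 50% of that of Chrm2 and 45.6% of that of Slc5a7, against a median of 52.4% over 32851 RefSeq windows of the same length. The GC box was found in the windows of Chrna4, with 3 matches, and of Chrm2, with 1, and also in those of Chrm4 and Chrna7, which were not called; 32.7% of all windows hold it. The TATA box, held by 12.4% of all windows, and the CAGATG E-box, held by 14.4%, were found among the 9 windows in that of Slc5a7 alone. TAATTA, held by 4.84% of all windows, was found in that of Chrm5 alone. The cAMP response element (1.55% of all windows) and the RE1 part (0.301%) matched in none of the 9. No motif searched was shared by all 3 genes called lower. A match or its lack describes only these letters in this window.

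Chat and Slc5a7, the synthesis pair, both stood somewhat higher in the Gas5 libraries without passing the test. Chat had 11.3, 12.1 and 13.0 CPM in Gas5 A, B and C, against 11.1, 10.5 and 8.88 CPM in GFP A, B and C. The groups met closely between Gas5 A and GFP A and did not overlap. Its log2 fold change was 0.25 (SE 0.0973, edgeR adjusted p = 0.182). Slc5a7, the high-affinity choline transporter gene, had 21.3, 19.1 and 21.9 CPM in the Gas5 libraries, against 19.1, 15.6 and 12.1 CPM in the GFP libraries. Gas5 B (19.0999 CPM) and GFP A (19.055 CPM) were level to 3 digits, and GFP C was the lowest library. Only by that margin does Slc5a7 count among the 6 genes whose groups did not overlap. Its log2 fold change was 0.40 (SE 0.142, edgeR adjusted p = 0.149), and it passed the test without GFP A (log2 fold change 0.58, adjusted p = 0.0401) or without an expression filter (adjusted p = 0.0442).

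The log2 ratio of Slc5a7 to Chat CPM, for 2 genes used by the same neurons, was 0.89, 0.64 and 0.73 in the Gas5 libraries, against 0.76, 0.56 and 0.43 in the GFP libraries. The difference of 0.17 was within the overlap of the groups (exact permutation test, 2-sided, p = 0.3, where 3 against 3 libraries allow no p below 0.1). Other genes that mark cholinergic neurons were examined beside them. Of 8 such markers 7 were tested, 1 was called higher by edgeR and limma-voom and 2 by DESeq2, and 0 were called lower by these tools. At an unadjusted p under 0.05, each of the 3 tools had 2 higher. At that threshold 0 were lower by edgeR or DESeq2 and 1 by limma-voom. In the edgeR fit 5 log2 fold changes were positive and 2 negative. The median log2 fold change of these markers was 0.27, and their summed level was between 33.5 and 43.0 CPM in the Gas5 libraries and between 23.8 and 32.8 CPM in the GFP libraries. Their mean log2 CPM overlapped, between 1.47 and 1.603 in the Gas5 libraries and between 1.21 and 1.51 in the GFP libraries. The marker called was Isl1, a LIM homeodomain factor of cholinergic and other striatal neurons, named with Lhx8 after their values were seen. Isl1 had 14.9, 10.8 and 12.7 CPM in the Gas5 libraries, against 9.30, 6.66 and 7.24 CPM in the GFP libraries. Its log2 fold change was 0.71 (SE 0.151, edgeR adjusted p = 0.0345), and it did not pass once GFP C (0.143), GFP B (0.138), Gas5 A (0.0748) or Gas5 C (0.0719) was left out. Lhx8, a LIM factor of forebrain cholinergic neurons, had a log2 fold change of 0.75 (SE 0.233, adjusted p = 0.106), and passed with DESeq2 (0.0167), without an expression filter (0.017) and with the replicate letter as a block (0.00839). Ngfr, also named after its values were seen, went the other way, with a log2 fold change of -0.76 (SE 0.353, edgeR adjusted p = 0.256). It had 9, 22 and 22 counts in the Gas5 libraries, against 39, 25 and 27 counts in the GFP libraries. In CPM its groups did not overlap.

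**Figure D1:**
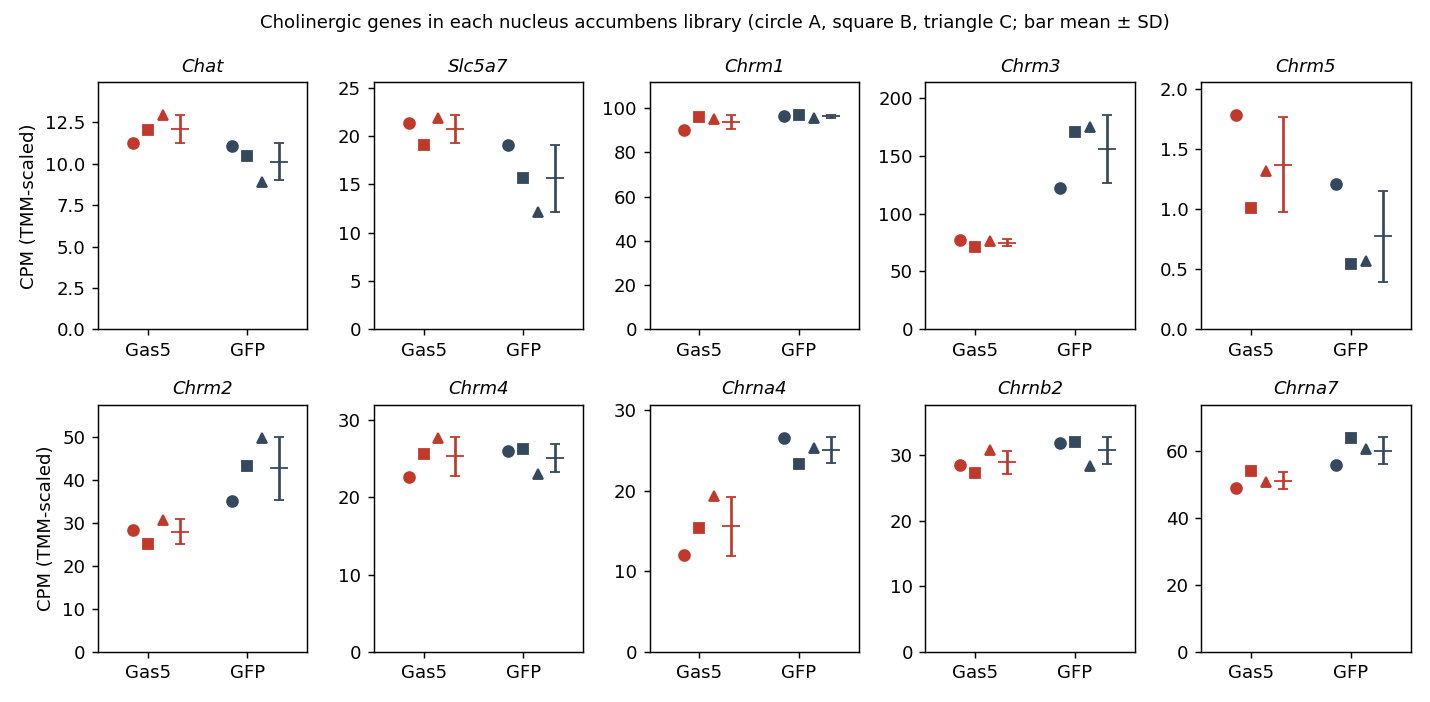
TMM-scaled CPM of the 10 genes in each library, with Gas5 libraries in red and GFP libraries in dark blue, library letters as symbols, and the mean ± SD (n = 3) as a bar; each axis starts at 0. Chrm3, Chrm2 and Chrna4 show separate groups, with Chrm3 between 71.4 and 76.7 CPM in Gas5 and between 122 and 175 CPM in GFP, while the groups of Chrm1, Chrm4 and Chrnb2 overlap.

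Among the Gq-coupled receptors, Chrm3 fell and Chrm1 did not pass the test. Chrm3, a receptor gene also known from smooth muscle and glands, had 76.7, 71.4 and 76.5 CPM in Gas5 A, B and C, against 122, 171 and 175 CPM in GFP A, B and C. The Gas5 libraries lay close together and below all GFP libraries, among which GFP A was lowest. Means were 74.9 ± 3.00 CPM in the Gas5 group and 156 ± 29.6 CPM in the GFP group (SD, n = 3 each). Chrm3 was 2.08-fold lower in the Gas5 group (log2 fold change -1.06, SE 0.124, edgeR adjusted p = 0.00642). The call held without any one of the 6 libraries, with log2 fold changes between -1.21 and -0.97. Among the GFP libraries GFP A had both the lowest Chrm3 and the lowest cortical marker score. The Gas5 libraries ran from 2.19 to 3.04 in score and from 71.4 to 76.7 CPM in Chrm3. The part of the score in the Chrm3 difference was not tested beyond the model that includes it. With the score in the model the log2 fold change of Chrm3 was -0.62 (SE 0.325, adjusted p = 0.998).

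Chrm1, the muscarinic receptor gene most widely used by forebrain projection neurons, had 90.1, 96.1 and 95.1 CPM in the Gas5 libraries, against 96.4, 97.1 and 95.5 CPM in the GFP libraries. The groups overlapped, and Gas5 A was the lowest. Its log2 fold change was -0.04 with a 95% interval of -0.14 to 0.06 (edgeR adjusted p = 0.652). The log2 ratio of Chrm3 to Chrm1 CPM, added after the values were seen, was -0.23, -0.43 and -0.31 in the Gas5 libraries, against 0.34, 0.81 and 0.87 in the GFP libraries. The difference was -0.995, with no overlap between the groups (exact permutation test, 2-sided, p = 0.1, the smallest possible). Chrm5, best known from midbrain dopamine neurons, had few counts. It had 77, 43 and 51 counts (1.79, 1.01 and 1.32 CPM) in the Gas5 libraries, against 67, 21 and 18 counts (1.21, 0.545 and 0.567 CPM) in the GFP libraries. GFP A lay above Gas5 B, so the groups overlapped. This log2 fold change of 0.76 had a 95% interval of -0.03 to 1.56 (adjusted p = 0.252).

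The Gi-coupled pair also divided. Chrm2, the receptor gene known as an autoreceptor of cholinergic neurons, had 28.4, 25.0 and 30.6 CPM in the Gas5 libraries, against 35.2, 43.3 and 49.8 CPM in the GFP libraries. All Gas5 libraries lay below all GFP libraries, and GFP A was again the nearest to the Gas5 group. Means were 28.0 ± 2.84 CPM in the Gas5 group and 42.7 ± 7.30 CPM in the GFP group (SD, n = 3 each). Chrm2 was 1.52-fold lower (log2 fold change -0.61, SE 0.124, edgeR adjusted p = 0.0304). It did not pass when Gas5 A (adjusted p = 0.0552), Gas5 B (0.0596), GFP B (0.12) or GFP C (0.11) was left out. Adding the cortical marker score gave a log2 fold change of -0.18 (SE 0.323, adjusted p = 0.998).

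Chrm4, which is enriched in the medium spiny neurons of the direct pathway, had 22.6, 25.6 and 27.7 CPM in the Gas5 libraries, against 26.0, 26.3 and 23.0 CPM in the GFP libraries. The groups overlapped throughout. The log2 fold change was 0.01 with a 95% interval of -0.18 to 0.20 (edgeR adjusted p = 0.969), and its sign turned in 4 of 14 alternative settings. The log2 ratio of Chrm4 to Chrm1 CPM was -1.97, -1.89 and -1.76 in the Gas5 libraries, against -1.87, -1.86 and -2.03 in the GFP libraries. The difference of 0.05 was smaller than the SD within either group (exact permutation test, 2-sided, p = 0.6), and its sign turned without Gas5 C or without GFP C.

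Of the nicotinic subunits, Chrna4 fell, whereas its assembly partner Chrnb2 did not pass the test. Chrna4 had 12.0, 15.4 and 19.3 CPM in Gas5 A, B and C, against 26.5, 23.3 and 25.4 CPM in GFP A, B and C. The Gas5 libraries spread more widely than the GFP libraries and lay below them, with Gas5 A lowest in both Chrna4 and the cortical marker score. Among the GFP libraries the order was the other way for GFP A. It had the highest Chrna4 and the lowest score (3.97, against 4.47 in GFP B and 4.49 in GFP C). The part of the score in the Chrna4 difference was not tested beyond the model that includes it. Means were 15.6 ± 3.65 CPM in the Gas5 group and 25.1 ± 1.63 CPM in the GFP group (SD, n = 3 each). Chrna4 was 1.61-fold lower (log2 fold change -0.69, SE 0.146, edgeR adjusted p = 0.0347). It did not pass without Gas5 B (adjusted p = 0.0629), GFP A (0.0836), GFP B (0.1) or GFP C (0.136). With the score in the model the log2 fold change was -0.06 (SE 0.335, adjusted p = 0.999).

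Chrnb2 had 28.5, 27.3 and 30.8 CPM in the Gas5 libraries, against 31.8, 32.03 and 28.4 CPM in the GFP libraries. GFP C lay among the Gas5 libraries. The log2 fold change was -0.09 with a 95% interval of -0.25 to 0.06 (edgeR adjusted p = 0.482). The gene shares 39.3% of its span with Adar on the opposite strand, a stretch whose reads are not counted. The log2 ratio of Chrna4 to Chrnb2 CPM, also added after the values were seen, was -1.21, -0.81 and -0.66 in the Gas5 libraries, against -0.26, -0.45 and -0.16 in the GFP libraries. The difference was -0.60, with no overlap (exact permutation test, 2-sided, p = 0.1, the smallest possible). Chrna7 had 49.0, 54.1 and 50.7 CPM in the Gas5 libraries, against 55.9, 64.0 and 60.9 CPM in the GFP libraries. The groups did not overlap, though Gas5 B and GFP A were close. Its log2 fold change was -0.23 (SE 0.0621, edgeR adjusted p = 0.0679), and it passed with DESeq2 (adjusted p = 0.0378), without an expression filter (0.0413) and without GFP A (0.0437).

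**Figure D2:**
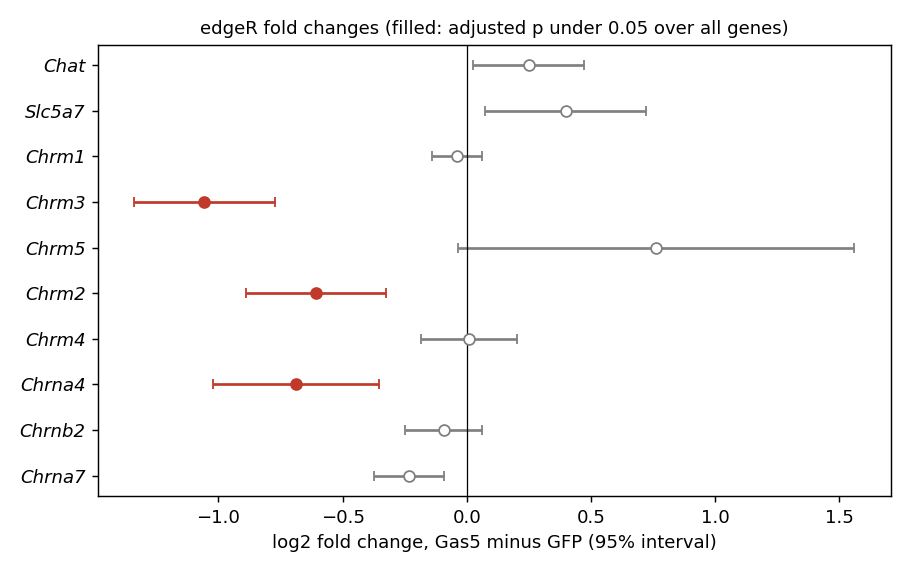
Log2 fold changes of the 10 genes, Gas5 minus GFP, with 95% intervals from the edgeR fit, ordered by role from synthesis at the top to nicotinic subunits at the bottom. The 3 filled genes passed an adjusted p of 0.05 over all genes; the interval of Chrm5 is the widest of the 10, from -0.03 to 1.56.

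**Figure D3:**
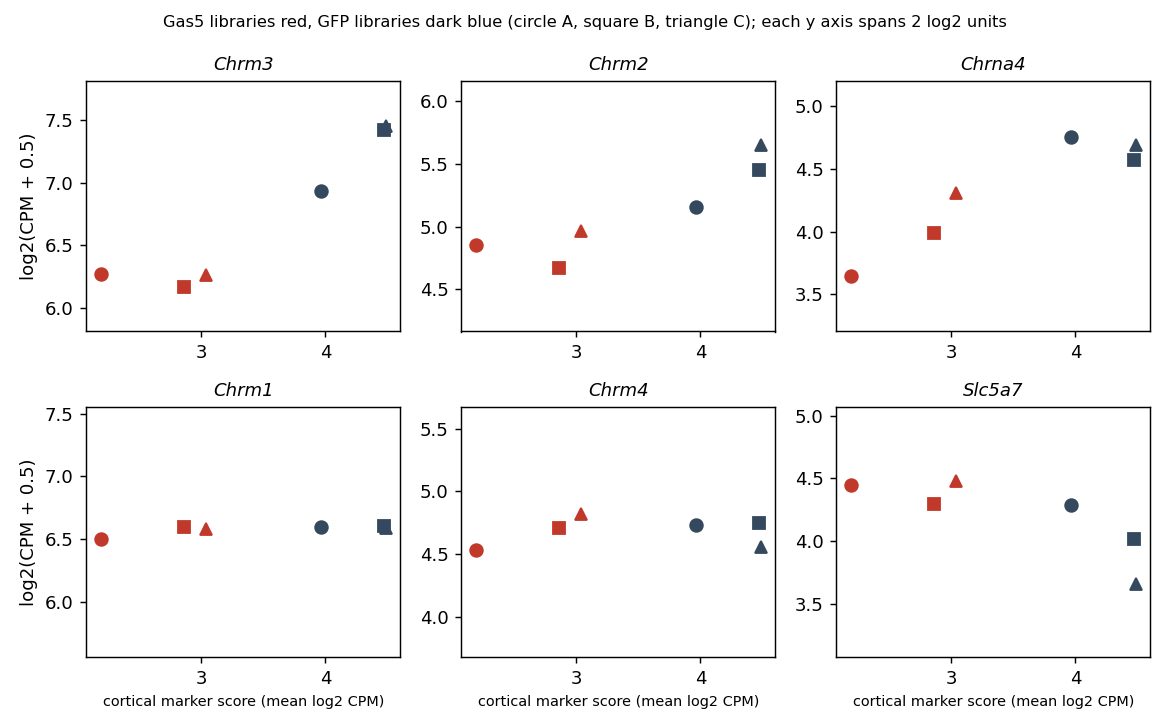
Level of 6 genes on the log2(CPM + 0.5) scale against the cortical marker score in each library, Gas5 in red and GFP in dark blue; every vertical axis covers the same width. The groups lie apart along the score in every panel, from 2.19 to 3.04 in Gas5 and from 3.97 to 4.49 in GFP, and also along the vertical axis for Chrm3, Chrm2 and Chrna4. For Slc5a7 they nearly touch on that axis, with Gas5 B at 19.0999 CPM and GFP A at 19.055 CPM.

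Levels were compared between genes only per kilobase of counted gene span, a quantity that mixes exons and introns. Chrm4 stood highest at a median of 17.9 CPM per kb over the 6 libraries, followed by Chrm1 at 4.92 and Chrnb2 at 2.65 CPM per kb, and each of these 3 lay apart from the next in every library. Chrna4 (0.847 CPM per kb), Slc5a7 (0.750), Chrm5 (0.691) and Chrna7 (0.492) followed, and neighbours among these 4 overlapped. Their order differed by group: Chrm5 had the highest mean in the Gas5 libraries (0.856) and the lowest in the GFP libraries (0.483), while Chrna4 stood below Chrm5 and Slc5a7 in Gas5 (0.619) and above both in GFP (0.996). Chrm2 (0.238), Chrm3 (0.213) and Chat (0.205) came last, apart from Chrna7, and neighbours overlapped. Here too the order of the means turned, with Chat at 0.222, Chrm2 at 0.203 and Chrm3 at 0.161 CPM per kb in the Gas5 libraries, against Chat at 0.186, Chrm2 at 0.309 and Chrm3 at 0.335 CPM per kb in the GFP libraries. The order depends on the gene models: exons make up all of the spans of Chrm4 and Chrm5, 32.8% of that of Chrm1, 8.14% of that of Chat, 4.31% of that of Chrm2 and 1.29% of that of Chrm3. Reads of Chrm2 and Chrm3 can therefore come largely from introns of unspliced RNA, which were counted here.

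On build GRCm38 the spans of all 10 genes equal those of GENCODE release M21. Chrm3 (ENSMUSG00000046159) lies on chromosome 13 from 9875486 to 10360847 on the minus strand, and 6 other listed genes overlap 4.07% of it. Chrm2 (ENSMUSG00000045613) lies on chromosome 6 from 36388084 to 36528414 on the plus strand, with 1.56% shared. Chrna4 (ENSMUSG00000027577) lies on chromosome 2 from 181018380 to 181043546 on the minus strand and shares nothing. Chat (ENSMUSG00000021919) lies on chromosome 14 from 32408203 to 32465989 on the minus strand. Slc18a3, the vesicular acetylcholine transporter gene, lies wholly within Chat on the same strand and was at 0 in every library, as were other genes nested in this way, so no level can be given for it. Slc5a7 lies on chromosome 17 from 54273590 to 54299034 on the minus strand, Chrm1 on chromosome 19 from 8663789 to 8683587 on the plus strand, and Chrna7 on chromosome 7 from 63098692 to 63212569 on the minus strand. Chrm4 and Chrm5, both modelled as 1 exon, lie on chromosome 2, from 91927249 to 91928688 on the plus strand and from 112479171 to 112480769 on the minus strand. Chrnb2 lies on chromosome 3 from 89746195 to 89764632 on the minus strand.

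The rest of the cholinergic pathway was followed in 5 lists. Of 13 further nicotinic subunit genes 5 were tested and 0 were called, with 1 at an unadjusted p under 0.05 and none past the threshold of limma-voom. That gene, Chrna5, an accessory subunit, had 4, 16 and 11 counts in the Gas5 libraries, against 30, 35 and 33 counts in the GFP libraries. All Gas5 libraries lay below the GFP libraries. Its log2 fold change was -1.68 (SE 0.45, edgeR adjusted p = 0.0682), and DESeq2 called it, the 1 call of that list by DESeq2. Chrna2, the next by p, had a log2 fold change of 0.31 (adjusted p = 0.345).

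Of 7 genes for acetylcholine storage, breakdown and choline supply, 6 were tested and 0 were called by edgeR, DESeq2 or limma-voom, with 2 at an unadjusted p under 0.05. Ache, which encodes acetylcholinesterase, had 40.0, 41.4 and 37.8 CPM in the Gas5 libraries, against 36.4, 35.0 and 33.8 CPM in the GFP libraries. The groups did not overlap, and the log2 fold change was 0.18 (SE 0.0532, edgeR adjusted p = 0.0961). Slc44a1, a choline transporter-like gene, had a log2 fold change of -0.16 (adjusted p = 0.115). Over this list the median log2 fold change was 0.01.

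Among nicotinic receptor chaperones and Ly6 modulators, edgeR and limma-voom each called 2 of 7 genes higher and 2 lower. Ly6 proteins are small and membrane-anchored. DESeq2 called 2 higher and 3 lower. At an unadjusted p under 0.05 in the edgeR test 2 were higher and 3 lower, around a median of -0.06 in log2 fold change. Of all tested genes edgeR called 5.44%, DESeq2 8.5% and limma-voom 5.02%, and 21.4% had an unadjusted p under 0.05. Lynx1, which restrains nicotinic receptors in the brain, fell, with 44.8, 68.9 and 68.9 CPM in the Gas5 libraries, against 96.8, 99.0 and 104 CPM in the GFP libraries. Every Gas5 library was below the GFP libraries, with Gas5 A far the lowest. The log2 fold change was -0.72 (SE 0.145, edgeR adjusted p = 0.0295). Lypd6, a related gene, fell with a log2 fold change of -0.40 (SE 0.0671, adjusted p = 0.0163). Lypd1 rose, with 46.6, 40.0 and 38.7 CPM in the Gas5 libraries, against 33.8, 27.2 and 24.8 CPM in the GFP libraries, a log2 fold change of 0.54 (SE 0.116, adjusted p = 0.0359). Ly6h, known to limit nicotinic receptors at the cell surface, rose with a log2 fold change of 0.36 (SE 0.0806, adjusted p = 0.0411). Without GFP B or without GFP C none of the 4 was called, without Gas5 A or without Gas5 C neither Lypd1 nor Ly6h was, without Gas5 B Lypd1 was not, and without GFP A Lynx1 was not. The chaperone genes Ric3 and Tmem35a had log2 fold changes of -0.06 and -0.01. The cortical markers separated the groups beside these changes (score at most 3.04 in Gas5, at least 3.97 in GFP). With them in the model, which called 0% of all genes, the signs of Lynx1, Lypd1 and Ly6h turned, to 0.18, -0.17 and -0.15. The part of the markers in these changes was not tested beyond that model.

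Downstream of the receptors, the lists for the G protein arms gave different counts, a difference that was not tested. Over all tested genes edgeR called 5.44% (3.96% lower), DESeq2 8.5% and limma-voom 5.02%, and 21.4% had an unadjusted p under 0.05. Of 9 genes on the Gq side, among them Gnaq and phospholipase C genes, 0 were called by edgeR or limma-voom and 3 lower by DESeq2, with 4 at an unadjusted p under 0.05 and a median log2 fold change of -0.03. Plcb4, a phospholipase C gene, had a log2 fold change of -0.26 (SE 0.063, edgeR adjusted p = 0.0515), and Itpr1, the inositol trisphosphate receptor gene, one of -0.34 (adjusted p = 0.103). Of 9 genes on the Gi side 3 fell and 0 rose, with 5 lower and 1 higher at an unadjusted p under 0.05. DESeq2 called 3 lower and 1 higher, limma-voom called 3 lower and 0 higher, and the median log2 fold change was -0.15. The genes that fell, Kcnj6, Kcnj3 and Kcnj9, all encode subunits of the GIRK potassium channels that muscarinic and other Gi-coupled receptors open.

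Kcnj6 had 25.0, 21.8 and 28.5 CPM in the Gas5 libraries, against 56.1, 81.2 and 87.0 CPM in the GFP libraries. As for Chrm3, the Gas5 libraries were close together and GFP A was the lowest of the GFP libraries. Kcnj6 was 2.98-fold lower (log2 fold change -1.57, SE 0.163, edgeR adjusted p = 0.00473). Kcnj3 was 1.95-fold lower (log2 fold change -0.96, SE 0.11, adjusted p = 0.006) and Kcnj9 1.47-fold lower (log2 fold change -0.55, SE 0.0831, adjusted p = 0.0119). Kcnj6 and Kcnj3 were called without any one of the 6 libraries, and Kcnj9 was not without GFP B (adjusted p = 0.0656) or GFP C (0.0646). Adding the cortical markers to the model gave log2 fold changes of -0.87 for Kcnj6, -0.37 for Kcnj3 and -0.52 for Kcnj9. That model called 0% of all genes, and the score does not overlap between the groups. These values therefore cannot show what part the score has, which was not tested further.

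**Figure D4:**
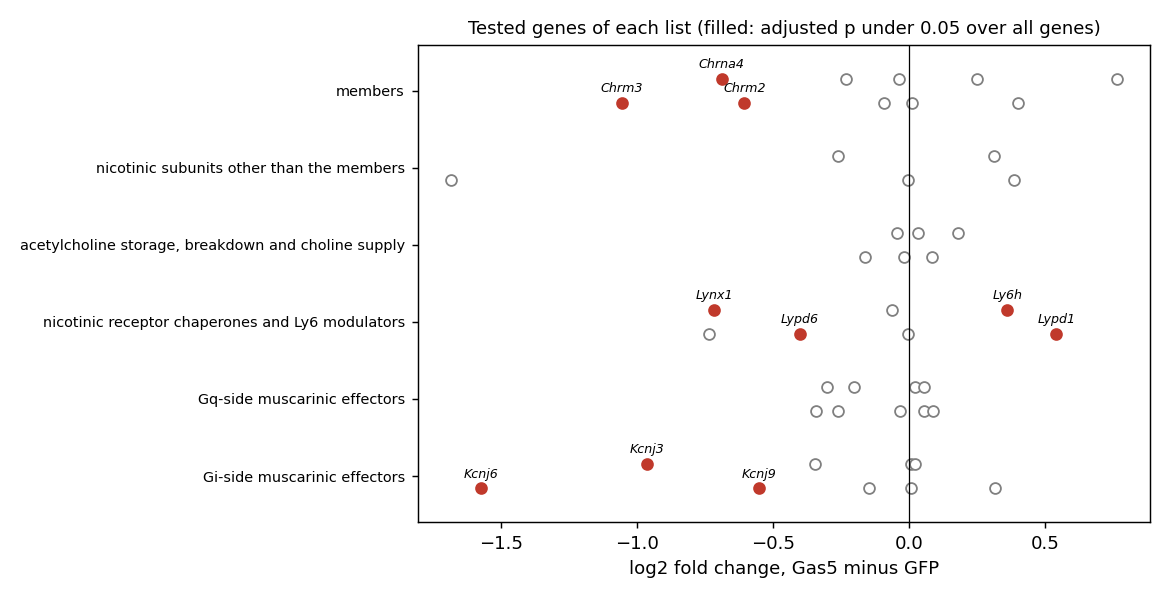
Log2 fold change, Gas5 minus GFP, of each tested gene in the 10-gene set and in the 5 pathway lists; filled and named points passed an adjusted p of 0.05 over all genes, and points are offset vertically for legibility. The 3 filled points on the Gi side, between -1.57 and -0.55, are GIRK subunit genes.

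Among 12281 other tested genes whose mean log2 CPM reached 1, those whose log2 CPM most resembled that of Chrm3 over the 6 libraries were Zyx, Gabbr2, Brinp3, Vps13d and Kit, with Pearson r between 0.995 and 0.998. Of these, Zyx (edgeR adjusted p = 0.0219), Gabbr2 (0.0115) and Brinp3 (0.0106) were called lower, and Vps13d (0.125) and Kit (0.0533) were not called. The 5 most like Chat were Med9, Myl9, Etfrf1, Atg12 and Slc25a17, with Pearson r between 0.986 and 0.997, and 0 of these 5 were called. Of all tested genes 5.44% were called. With 6 libraries in separate groups such values describe likeness in these libraries only.

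**Figure D5:**
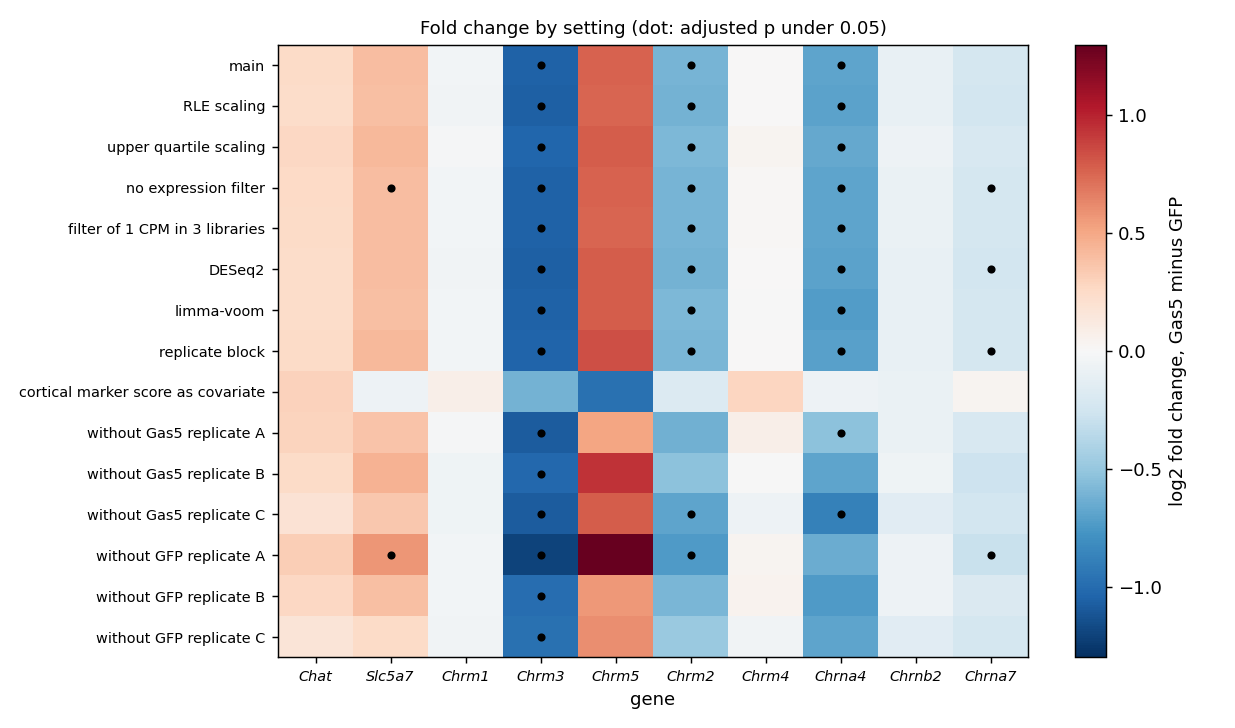
Log2 fold change of each of the 10 genes (across) in the reported analysis and 14 alternative settings (down), red for higher and blue for lower in Gas5; a dot marks an adjusted p under 0.05. Chrm3 has a dot in 13 of the 14 alternatives and Chrm2 and Chrna4 in 9 each, and once the score joined the model none of the 10, and none of all 17563 genes, passed.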

How the data were processed

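Per the file headers, the authors deposited raw counts per gene for each library, with no normalization. Their processing notes list build GRCm38.p6 and these tools: STAR 2.7.0, used beside Trim Galore 0.4.4; featureCounts 1.5.0-p3; bcl2fastq 1.8.4; edgeR 3.20.9. Not given in the sources used here: annotation release and strand setting. Per gene, the length column equals the whole span for 54641 of 54658 genes, so introns were counted, and genes lying wholly within another listed gene (such as Slc18a3, Gfap and P2ry12) had 0 counts.

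Counts were fitted in R 4.3.3 with edgeR 4.0.16: default expression filter, TMM scaling (CPM are scaled likewise), and a 2-sided quasi-likelihood F-test of Gas5 minus GFP over all 6 libraries. P-values were adjusted by Benjamini-Hochberg over 17563 genes at a threshold of 0.05. The SE is the absolute log2 fold change over the square root of F. Log2 CPM uses a pseudocount of 0.5. Alternatives used DESeq2 1.42.0, limma 3.58.1 (voom), RLE and upper quartile scaling, other filters, the replicate letter as a block, a covariate, and each library left out. The covariate and the ratios of Chrm3 to Chrm1 and Chrna4 to Chrnb2 rest on values already seen. In simulated counts for this comparison (17563 genes, 200 of them changed by 1 log2 unit), edgeR recovered 88.5% of the changed genes, and 5.35% of its calls were false. The simulation gave every gene the same dispersion, so these shares hold for that setting only. Pairs of libraries within a group differed beyond sampling noise (chi-square per degree of freedom 5.05 to 25.4). Named genes are the 10 genes, Gas5, and the 2 of smallest p and every called gene in each pathway list. The 5 most like Chat and most like the gene of smallest p among the 10 are named too. Ric3, Tmem35a and Lypd6b were added to complete their list. Genes, lists and rules were chosen with earlier results of these data known.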

Additional observations from a re-analysis of the deposited data

How the results depend on the processing

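Of the 10 genes 3 were called lower; the count was 0 with the cortical score as covariate and 1 to 3 when each library was left out. It was 1, Chrm3, when GFP B, GFP C or Gas5 B was absent. The count called higher was 0, against 1 (Slc5a7) without an expression filter and 0 to 1 when each library was left out. The log2 fold change of Gas5 was 0.37 (SE 0.182, adjusted p = 0.998) with the score and 0.33 to 0.42 with each library left out. With the score the sign turned for Chrm1 (0.0742), Chrm5 (-0.97), Chrna7 (0.0359), Slc5a7 (-0.0657), Chrna5 (1.16), Slc44a1 (0.0651), Lynx1 (0.18), Lypd1 (-0.17), Ly6h (-0.15), Itpr1 (0.33), Isl1 (-0.10) and Lhx8 (-0.73). The score does not overlap between the groups, and that model called 0 genes over the whole table (424 had an unadjusted p under 0.05); the cause was not tested. Chrm4 was -0.00194 with limma-voom and -0.0693 to 0.0767 with each library left out, and the difference in the Chrm4 to Chrm1 ratio was -0.00672 to 0.0966. Deviations of same-lettered libraries correlated at 0.164, 0.179 and -0.0936, not all above 0.1, and no label says what the letters share, so they were not taken to pair the libraries. With the replicate block 4 of the 10 genes were lower (Chrna7 was added) and 0 higher, and over all genes 510 were higher and 928 lower. RLE and upper quartile scaling each left 3 of the 10 lower and 0 higher. Over all genes 4 were higher and 111 lower without GFP B, and 6 and 101 without GFP C, against 260 and 695.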

Other observations

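Markers of other cells that accumbens tissue or its neighbours could hold gave these counts in the edgeR test. For all tested genes the shares called were 5.44% by edgeR (3.96% lower, 1.48% higher), 8.5% by DESeq2 and 5.02% by limma-voom. An unadjusted p under 0.05 was reached by 21.4% of them in the edgeR test. Of 7 GABA interneuron markers 1, Vip, fell with a log2 fold change of -1.47 (adjusted p = 0.0218). In that list 3 were lower and 0 higher at an unadjusted p under 0.05, and DESeq2 and limma-voom each called 1 lower. Of 6 markers of septum and basal forebrain 1, Trpc4, was lower, with 2 lower and 1 higher, Lhx8, at an unadjusted p under 0.05. DESeq2 called 1 of them higher and 1 lower, and limma-voom called 1 lower. Lhx8 and Zic4 of this list are also among the cholinergic neuron markers. Of 6 oligodendrocyte markers 1, Aspa, was lower, with all 6 log2 fold changes negative and 5 at an unadjusted p under 0.05. DESeq2 called 3 of these 6 lower and limma-voom 0. Of 5 endothelial markers 1, Flt1, was lower, with 2 lower and 0 higher at an unadjusted p under 0.05. DESeq2 and limma-voom each called 1 endothelial marker lower. Of 5 tested astrocyte markers 1, Aqp4, was higher, with 4 higher at an unadjusted p under 0.05, 2 by DESeq2 and 0 by limma-voom. Of 5 tested microglia markers 0 were called by edgeR, with 3 higher at an unadjusted p under 0.05, 2 higher by DESeq2 and 1 by limma-voom. Of 5 medium spiny neuron markers of the D1 type 0 were called by edgeR, with 3 at an unadjusted p under 0.05, 2 by DESeq2 (1 higher and 1 lower) and 0 by limma-voom. Of 5 tested markers of the D2 type 0 were called by edgeR, DESeq2 or limma-voom, with 1 at an unadjusted p under 0.05. These genes were named after their values were seen, and the part of these cells in the receptor results was not tested.

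For Chrm4 the RefSeq start lies 5060 bases upstream of the start of the counted gene model, which is a single exon of 1440 bases. The start positions of the 7 other genes matched in RefSeq, Chrna4 apart, lie within 80 bases of the models.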
